A study of Mus musculus with 28 samples.

Results

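Microglia were set against astrocytes of the same brains in 5 APPPS1 Cre-negative mice, which gave 10 of the 28 libraries of the series, 1 microglia and 1 astrocyte library from each of mice 439, 447, 469, 774 and 779. The members were chosen by genotype and sort label, and every mouse gene row of the deposited count table was read in them. The mice were APPPS1::APOE4fl/fl: they carried the APPPS1 transgenes, which make the brain form amyloid plaques, and a floxed human APOE4 gene on both alleles, without Cre. They received 2 tamoxifen injections of 100 mg per kg at 3.8 months of age, as did every mouse of the series, and cells were collected 10 days later from cortex, hippocampus and thalamus (no region is given for the astrocytes of mouse 779). Microglia were sorted with an antibody against CD11b and astrocytes with one against ACSA-2. The labels name 5 mice of this genotype, and the series description 4. The other libraries used here came from 5 APPPS1 Cre-positive mice, which carried ALDH1L1-CreERT, a tamoxifen-inducible Cre active in astrocytes, as a repeat of the same comparison, and from 2 amyloid-free Cre-negative mice (APOE4fl/fl alone, mice 465 and 759). Mice 22 and 26, amyloid-free and Cre-positive (APOE4fl/fl::ALDH1L1-CreERT), enter a fit of 26 libraries that serves as an alternative. The APPPS1 transgenes act in neurons, so neither sorted cell type is their main site of expression. Each library is a bulk sample of sorted cells, in which fewer cells of a type and less RNA per cell cannot be told apart.

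Microglia are the resident macrophages of the brain. They enter it early in development, depend on the CSF1 receptor and TGF-beta signalling, carry Fc, Toll-like and complement receptors, and digest what they engulf in lysosomes. Around amyloid plaques they take on a known state in which Trem2, a lipid-sensing receptor, is required for a group of genes such as Cst7, Lpl and Itgax to rise. Astrocytes descend from neural progenitors. They clear glutamate and potassium, couple to each other and to vessels, and are the main source of cholesterol and lipoprotein particles in the brain, and they raise Gfap when reactive.

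Mouse gene counts ran from 38313737 to 48313983 per library in these 10 libraries. Levels are CPM, mouse gene counts of a library scaled to 1e6 by its TMM library size, given as the mean ± SD (n = 5) unless each library is listed, in the order of mice 439, 447, 469, 774 and 779, and in brackets in short form. A difference is the log2 ratio of microglia to astrocytes fitted by edgeR with the mouse as a block, ± its standard error, so a positive value means higher in microglia. Where single libraries of a sort are near 0, the fitted difference can lie far from the ratio of the 2 means. A gene passed at a Benjamini-Hochberg adjusted p under 0.05 over all 17094 genes tested. It is called microglia-biased or astrocyte-biased when it passed and differed at least 4-fold, and shared when it was tested, was neither of these and averaged at least 1 CPM in both sorts.

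The marker genes followed the sort labels in all 5 mice. Trem2 stood at 2762, 3041, 2054, 3616 and 4324 CPM in microglia, against 0, 0, 0.0395, 0.507 and 0.558 CPM in astrocytes. C1qa, a subunit of the complement starter C1q, had 2818, 2598, 2127, 2546 and 2408 CPM in microglia, against 0.239, 0.699, 1.09, 2.57 and 0.837 CPM in astrocytes. Cst7, the protease inhibitor cystatin F and a gene of the plaque-associated state, had 747, 1617, 285, 2200.1 and 3089.6 CPM in microglia, against 0.174, 0.0567, 0, 1.22 and 1.67 CPM in astrocytes. These 3 genes did not overlap between the sorts, and Cst7 varied most among microglia, lowest in mouse 469 and highest in mouse 779. Aqp4, the water channel of astrocyte end feet, had 0.0539, 1.24, 1.44, 0.243 and 0.721 CPM in microglia, against 630.5, 905, 693, 740.2 and 701 CPM in astrocytes. Gfap, the intermediate filament of reactive astrocytes, had 1.94, 1.51, 1.39, 2.41 and 2.33 CPM in microglia, against 196, 169, 110.5, 169 and 190.02 CPM in astrocytes. Both were high in every astrocyte library and near 0 in every microglia library. The sorting antigens did the same: Itgam, which encodes CD11b, averaged 984 ± 132 CPM in microglia and 1.78 ± 3.34 CPM in astrocytes. Atp1b2, which encodes ACSA-2, averaged 3.43 ± 3.27 CPM in microglia and 6605 ± 887 CPM in astrocytes.

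**Figure D1:**
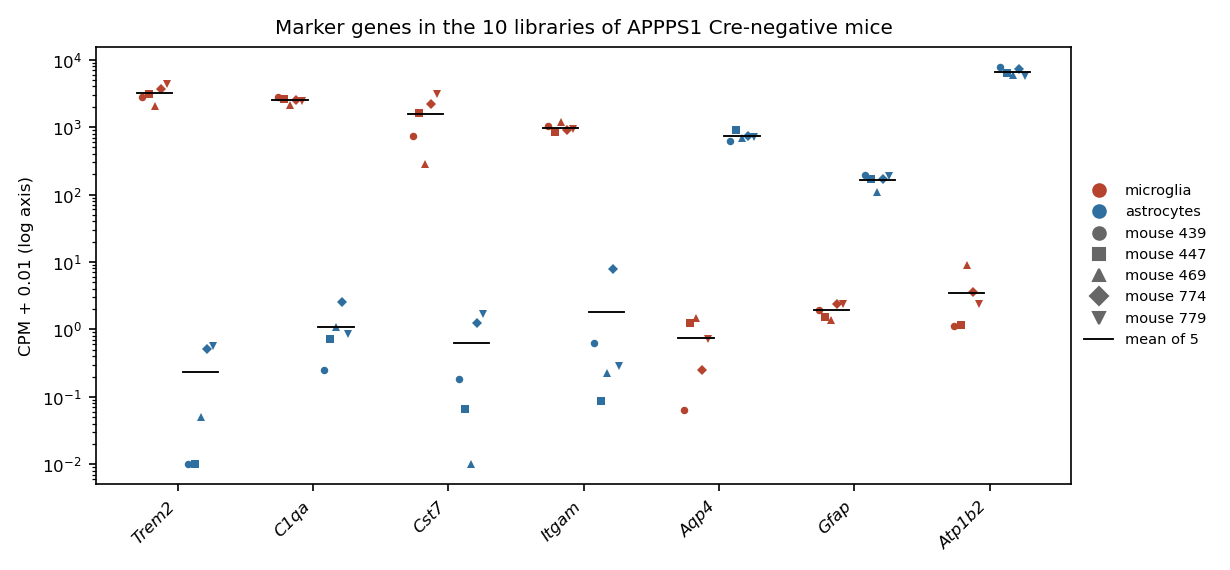
CPM of 7 genes in each of the 10 libraries, on a log axis after adding 0.01, with microglia left of astrocytes, 1 symbol per mouse and a bar at the mean of 5. Trem2, C1qa, Cst7 and Itgam sit high in microglia and Aqp4, Gfap and Atp1b2 in astrocytes, with no overlap, and the highest astrocyte value of Itgam, 7.74 CPM, belongs to mouse 774.

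Each sort held little of the other. The level of 16 astrocyte identity genes in microglia was a median of 0.054% of that in astrocytes, from 0.0214% for Slc6a11, a GABA transporter, to 2.94% for Slc1a3, a glutamate transporter. The level of 18 microglia identity genes in astrocytes was a median of 0.0627% of that in microglia, from 0.00699% for Trem2 to 11.8% for Sall1, a transcription factor. Markers of further cell types were measured in both sorts. All 13 oligodendrocyte markers were astrocyte-biased, against 22.6% of all genes tested, and their summed level was 205, 170.02, 290.3, 254 and 255 CPM in microglia, against 3507, 3247, 13649, 10957 and 8669 CPM in astrocytes. Mice 439 and 447 had the 2 lowest oligodendrocyte sums among astrocytes. Cnp, a myelin enzyme, was also at 124 CPM in microglia, against 1073 CPM in astrocytes. Pericyte and smooth muscle markers summed to 9.62 to 28.3 CPM in microglia and 620.5 to 1579 CPM in astrocytes. Endothelial markers summed to 131 to 164 CPM in microglia and 479.8 to 1024 CPM in astrocytes. Ependyma and choroid plexus markers summed to 1.37 to 77.5 CPM in microglia and 132 to 380.1 CPM in astrocytes, and neuron markers to 4.87 to 13.1 CPM in microglia and 306 to 341 CPM in astrocytes.

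Markers of other myeloid cells were higher in the microglia sort. Border macrophage markers summed to 211 to 346 CPM in microglia and 0.794 to 3.91 CPM in astrocytes, with all 10 microglia-biased, against 15.2% of all genes tested. Monocyte and neutrophil markers summed to 9607, 998, 373, 361 and 881 CPM in microglia, against 4.33, 1.15, 1.16, 369.8 and 1.18 CPM in astrocytes, with all 14 microglia-biased, and 11 to 14 when 1 mouse was left out. Without the mouse block 9 were. The microglia of mouse 439 and, among astrocytes, the library of mouse 774 stood apart. S100a8, a calcium-binding protein of neutrophils, had 2459, 254, 76.5, 73.7 and 264 CPM in microglia, against 0.152, 0, 0, 154 and 0 CPM in astrocytes. Its call (adjusted p = 0.011) was lost without the mouse block (adjusted p = 0.108). Dissociation and immediate early genes, which rise when tissue is digested and cells are sorted, were also higher in microglia: 20 of 20 were microglia-biased, against the same 15.2%, and their sum was 14559.6, 10524, 17514, 8627 and 6571 CPM in microglia, against 375, 338, 236, 492 and 201 CPM in astrocytes. Among them Fos had 1499.8, 998, 1878, 641 and 547 CPM in microglia, against 40.7, 54.5, 22, 35.7 and 15.1 CPM in astrocytes. The part of these cells and of the dissociation genes in the results that follow was not tested, and where leaving out 1 mouse ended the microglia-biased or astrocyte-biased call of a gene named, that is given beside it.

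**Figure D2:**
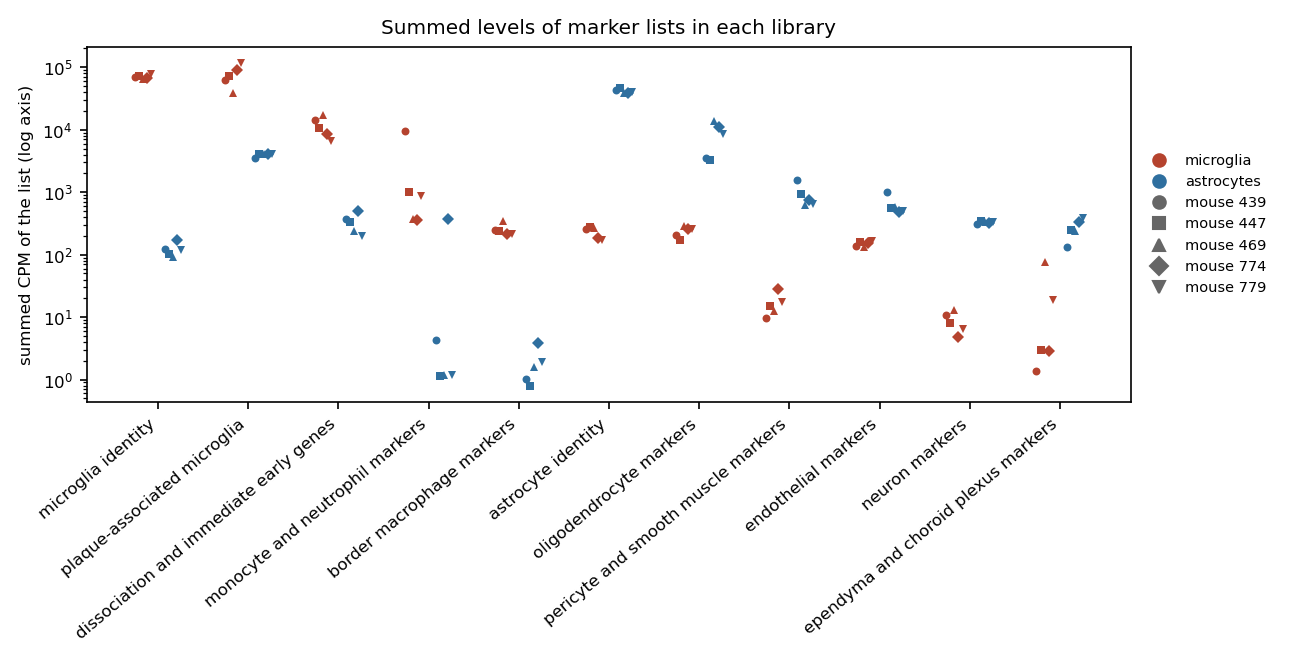
Summed CPM of 11 marker lists in each library on a log axis, with microglia left of astrocytes and 1 symbol per mouse. Monocyte and neutrophil markers reach 9607 CPM in the microglia of mouse 439 and 369.8 CPM in the astrocytes of mouse 774, and oligodendrocyte markers are lowest among astrocytes in mice 439 and 447.

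Of the 17094 genes tested, 5388 were higher in microglia (31.5%) and 6126 lower (35.8%). Among them 2604 were microglia-biased (15.2%) and 3866 astrocyte-biased (22.6%), and 8847 genes were shared. The median log2 difference over all genes was -0.07. Scaling to total mouse counts in place of TMM moved that median by -0.47 and the split to 3849 higher and 7971 lower. A small difference therefore depends on the scaling, and lists are described by the 4-fold limit. Among genes with at least 100 CPM in the higher sort and the same direction in all 5 mice, the largest microglial differences included Slamf9, a lymphocyte activation family receptor, with 141, 208, 165, 237 and 324 CPM in microglia, against 0, 0, 0, 0 and 0 CPM in astrocytes. Against the limit of 3 counts over the 5 astrocyte libraries it was at least 17577-fold higher. Others were Slc2a5, a fructose transporter (microglia 882±108, astrocytes 0.118±0.177 CPM), the Toll-like receptor relative Cd180 (microglia 146±23.1, astrocytes 0.0081±0.0181 CPM), and Ptafr, the receptor for platelet-activating factor (microglia 718±111, astrocytes 5.77±12.9 CPM). On the astrocyte side, Cyp4f15, a fatty acid hydroxylase, had 0, 0, 0, 0 and 0 CPM in microglia, against 226, 256, 200.3, 209.98 and 240.1 CPM in astrocytes, at least 14444-fold higher in astrocytes against the same limit. Hapln1, a link protein of the extracellular matrix, averaged 0 CPM in microglia and 102 ± 27.1 CPM in astrocytes, at least 6476-fold higher in astrocytes. Gabrg1, a GABA receptor subunit, averaged 0.0292 ± 0.0653 CPM in microglia and 256 ± 30.3 CPM in astrocytes, and Kcnk1, a potassium channel, 0.0654 ± 0.131 CPM in microglia and 369 ± 32.3 CPM in astrocytes. Entpd2, described below, Sybu (microglia 0.0109±0.0243, astrocytes 119±18.9 CPM), 3110039I08Rik (microglia 0.0272±0.0471, astrocytes 215±36.6 CPM) and Sorcs2 (microglia 0.0162±0.0361, astrocytes 123±11.4 CPM) were others on the astrocyte side, and Trem2, Ccl6 and Cd74, given elsewhere, were on the microglia side.

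The promoters of biased genes were searched on both strands for 6 short motifs, in RefSeq promoters of GRCm38.p6 that run from 250 bases before to 50 bases after each start site. GAGGAAGT, a core of the site bound by PU.1, the myeloid transcription factor encoded by Spi1, was in 7.3% of the 2041 promoters of microglia-biased genes and 1.92% of the 3590 of astrocyte-biased genes, against 3.14% of the 15028 of all tested genes and 3.2% of all 32851 promoters. TCACGTGA, the palindromic core of the site bound by TFEB, a regulator of lysosomal genes, was in 1.42% and 0.836% of the same sets, against 1.67% for tested genes and 0.974% for all, so that both sets lay below the tested genes. TCACNCCAC, a site of SREBP, the regulator of sterol synthesis, was in 1.32% and 1.39%, against 1.15% and 1.24%. TGANTCA, the site of AP-1, the Fos and Jun dimer, was in 7.3% and 6.29%, against 5.44% and 7.81%. TTGGCA, a site of the nuclear factor I family, was in 11.5% and 14%, against 11.6% and 14.1%, and CATTGT, a SOX site, in 7.89% and 8.66%, against 7.76% and 12.6%. The TFEB and SREBP letters begin alike, no other pair shares its letters, and each match is a description of letters, not of binding. The promoters of 4 genes described below, chosen after their values were seen, show such matches in capitals, printed 5′ to 3′ on the gene's strand to 20 bases after the start site.
Ctss, chr3:95526536-95526805, plus strand: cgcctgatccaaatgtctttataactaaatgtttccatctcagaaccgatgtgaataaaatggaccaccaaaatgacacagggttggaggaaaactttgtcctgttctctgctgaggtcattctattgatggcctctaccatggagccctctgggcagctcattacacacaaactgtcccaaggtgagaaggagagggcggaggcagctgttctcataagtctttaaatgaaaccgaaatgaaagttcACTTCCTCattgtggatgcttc
Pld4, chr12:112760405-112760674, plus strand: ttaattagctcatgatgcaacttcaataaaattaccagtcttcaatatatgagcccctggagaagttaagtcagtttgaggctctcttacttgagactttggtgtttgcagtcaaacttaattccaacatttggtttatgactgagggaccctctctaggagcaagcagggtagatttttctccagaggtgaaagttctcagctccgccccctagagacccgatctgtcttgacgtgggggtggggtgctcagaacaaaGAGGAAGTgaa
Ctsd, chr7:142387808-142388077, minus strand: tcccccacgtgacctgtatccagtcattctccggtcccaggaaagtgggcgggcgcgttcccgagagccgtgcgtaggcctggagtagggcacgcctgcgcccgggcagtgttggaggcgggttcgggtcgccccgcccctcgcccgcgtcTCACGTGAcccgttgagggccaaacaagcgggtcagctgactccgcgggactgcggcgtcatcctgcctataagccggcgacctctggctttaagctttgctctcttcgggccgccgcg
Hmgcs1, chr13:119690101-119690370, plus strand: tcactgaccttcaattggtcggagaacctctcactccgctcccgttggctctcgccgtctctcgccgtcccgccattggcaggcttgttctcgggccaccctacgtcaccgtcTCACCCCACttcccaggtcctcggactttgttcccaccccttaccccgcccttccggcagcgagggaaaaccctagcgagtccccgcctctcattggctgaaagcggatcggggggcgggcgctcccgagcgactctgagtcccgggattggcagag
The capitals mark PU.1 letters in Ctss, beginning 2 bases before the start site and read on the opposite strand, and in Pld4, beginning 9 bases after it. They mark the TFEB core in Ctsd, beginning 99 bases before the start site, and the SREBP site in Hmgcs1, beginning 137 bases before it. Most genes of the lists that hold these 4 had no such match. Among genes with a promoter, PU.1 letters were in 2 of 11 cathepsins and 2 of 16 lysosomal lipid and nucleic acid enzymes. The TFEB core was in 2 of 11 cathepsins, and the SREBP site in 1 of 18 cholesterol synthesis genes.

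Ligands and receptors were read along 43 signalling axes with 175 genes, of which 167 were tested. Of these, 64 were microglia-biased and 64 astrocyte-biased, against 15.2% and 22.6% of all genes tested, and 34 shared. An astrocyte-biased ligand or producing enzyme met a microglia-biased receptor in 10 axes, and a microglia-biased ligand met an astrocyte-biased receptor in 7. Both members were microglia-biased in 16 axes and astrocyte-biased in 15, and 1 axis can count more than once. Among 67 tested ligands 29 were microglia-biased and 24 astrocyte-biased, and among 93 tested receptors 34 and 35. How many pairings such shares alone would give was not tested. The crossing from astrocyte to microglia was the only biased pairing in 3 axes (fractalkine, CD200 and interleukin-33), and that from microglia to astrocyte in 2 (TAM receptors and platelet-derived growth factor). No biased pairing was found in 9 axes (CD47, interleukin-10, interleukin-18, CXCL16, VEGF, Hedgehog, prosaposin, progranulin and interferon gamma). Pairing lay within microglia alone in 9 axes, such as interleukin-1, tumour necrosis factor and the chemokines Ccl3, Ccl4 and Ccl5, and within astrocytes alone in 10, such as fibroblast growth factor, Notch, Wnt and glutamate. For interleukin-1 the microglia-biased receptor was the decoy Il1r2, whose call was lost without the mouse block (adjusted p = 0.734). The receptor Il1r1 did not pass, and the co-receptor Il1rap was shared. Type I interferon was also among these 9 axes, and the call of its ligand Ifnb1 was lost without mouse 439, 447, 774 or 779. These are RNA levels, and no contact or protein was measured.

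**Figure D3:**
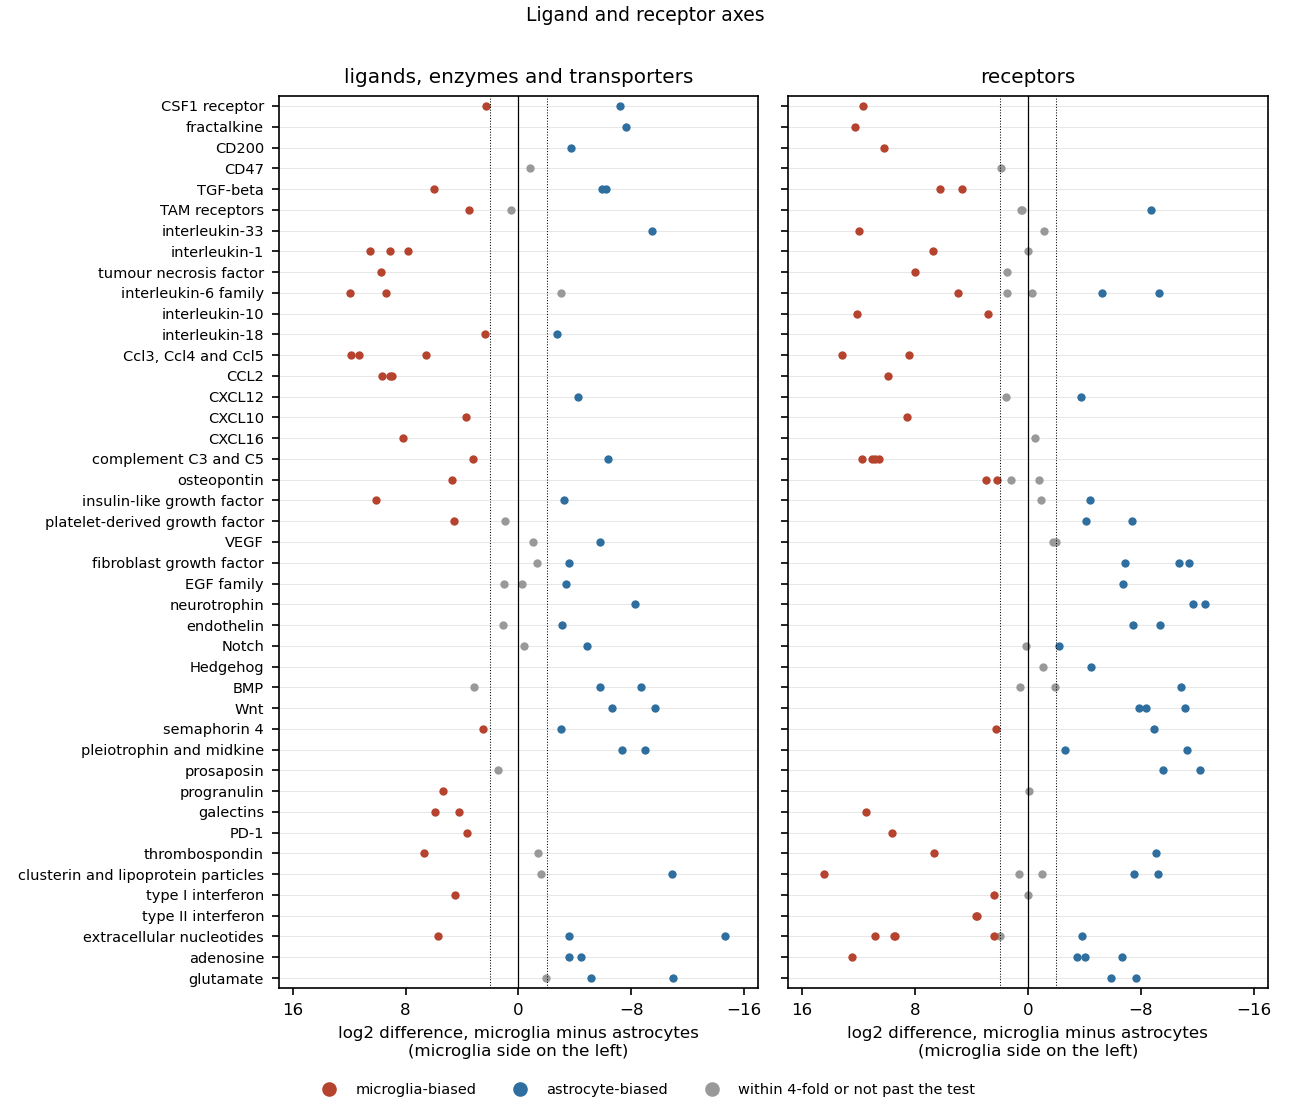
Fitted log2 difference, microglia minus astrocytes, of each tested ligand, enzyme or transporter (left panel) and receptor (right panel) of the 43 axes, with the microglia side on the left of each panel and dotted lines at 4-fold. Fractalkine, CD200 and interleukin-33 pair an astrocyte-biased ligand with a microglia-biased receptor. The ligands Ccl2, Ccl3, Ccl4 and Ccl5 and the receptors Ccr1 and Ccr2 lie on the microglia side. The ligands Il1a and Il1b lie there too, while the receptor Il1r1 lies near the middle. Fibroblast growth factor, Wnt and pleiotrophin genes lie on the astrocyte side of both panels.

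Ligands of receptors that maintain microglia were measured in both sorts. Csf1r, the receptor for CSF1 and interleukin-34 on which microglia depend, had 7057, 5804, 8343, 6323 and 7224 CPM in microglia, against 0.675, 2.89, 0.71, 9.4 and 2.6 CPM in astrocytes. Csf1 had 165, 236, 162, 348 and 423 CPM in microglia, against 44.1, 41.3, 49.9, 77.4 and 50.6 CPM in astrocytes, a log2 difference of 2.27 ± 0.22 (adjusted p = 0.000117). Il34 had 0, 0, 0.218, 0.755 and 0 CPM in microglia, against 33, 17.9, 10.8, 12.2 and 10.9 CPM in astrocytes, a log2 difference of -7.17 ± 1.24 (adjusted p = 0.00182). The receptor and Csf1 were thus microglia-biased, and Il34 astrocyte-biased with 3 microglia libraries at 0. In the TGF-beta axis the receptors Tgfbr1 and Tgfbr2 averaged 979.8 ± 290.1 CPM in microglia and 12.5 ± 1.06 CPM in astrocytes, and 289 ± 55.4 CPM in microglia and 11.8 ± 3.26 CPM in astrocytes. The ligand Tgfb1 had 7.84, 9.37, 7.84, 6.99 and 5.94 CPM in microglia, against 0.261, 0.189, 0.0789, 0.0203 and 0.107 CPM in astrocytes. Tgfb2 had 0.458, 0.421, 0.626, 0.706 and 2.3 CPM in microglia, against 44.7, 47, 58.7, 37.9 and 41 CPM in astrocytes, and Tgfb3 averaged 0.293 ± 0.486 CPM in microglia and 8.65 ± 1.96 CPM in astrocytes. The 3 ligands were split by sort, Tgfb1 in microglia and Tgfb2 and Tgfb3 in astrocytes, while both receptors were microglia-biased.

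Interleukin-33, an alarmin held in nuclei, had 0.323, 0.397, 0.327, 0.389 and 1.89 CPM in microglia, against 309, 274, 470.3, 522 and 352 CPM in astrocytes, a log2 difference of -9.49 ± 0.57 (adjusted p = 1.49e-05). Its receptor Il1rl1 had 8.57, 8.13, 11.4, 14.8 and 15.8 CPM in microglia, against 0, 0, 0, 0 and 0 CPM in astrocytes, at least 960.01-fold higher in microglia against the limit of 3 counts. Its co-receptor Il1rap, also used by interleukin-1, was shared at 10.5 ± 2.42 CPM in microglia and 24.8 ± 11.1 CPM in astrocytes. Cx3cl1, the membrane-bound chemokine fractalkine, averaged 0.0614 ± 0.0899 CPM in microglia and 10.9 ± 4.33 CPM in astrocytes, and its receptor Cx3cr1 3575 ± 589.97 CPM in microglia and 1.46 ± 1.61 CPM in astrocytes. Cd200, a surface protein that restrains myeloid cells, averaged 1.92 ± 0.787 CPM in microglia and 26.1 ± 14.4 CPM in astrocytes, and its receptor Cd200r1 32 ± 3.11 CPM in microglia and 0.0284 ± 0.0634 CPM in astrocytes. In these 3 axes ligand and receptor lay in opposite sorts. The other restraining pair, Cd47 (microglia 169±18.1, astrocytes 298±25.8 CPM) and its receptor Sirpa (microglia 1192±194, astrocytes 319±33.6 CPM), was shared.

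In the other direction, Pros1, a ligand of the TAM receptors that mediate uptake of dying cells, had 521, 543, 519, 598 and 682 CPM in microglia, against 62.1, 60.8, 36.1, 48.5 and 50 CPM in astrocytes, a log2 difference of 3.49 ± 0.18 (adjusted p = 8.88e-06). The second ligand Gas6 was shared (microglia 77.1±23.1, astrocytes 52±5.88 CPM). Of the receptors, Tyro3 was astrocyte-biased (microglia 0.114±0.183, astrocytes 38.2±7.49 CPM) and Mertk shared (microglia 475±65.2, astrocytes 338±63.8 CPM). Axl had 118, 145, 71.5, 342 and 380.0 CPM in microglia, against 130.1, 133, 119, 122 and 145 CPM in astrocytes. Axl overlapped between the sorts and did not pass (log2 difference 0.42 ± 0.36, adjusted p = 0.332), with microglia of mouse 469 lowest and of mouse 779 highest. Pdgfb was microglia-biased (microglia 71.6±26.9, astrocytes 3.42±2.2 CPM) and Pdgfa shared (microglia 29.9±4.09, astrocytes 15.7±5.19 CPM), while Pdgfrb (microglia 0.876±0.363, astrocytes 139.6±23.4 CPM) and Pdgfra (microglia 0.128±0.134, astrocytes 1.93±1.55 CPM) were astrocyte-biased. Pdgfrb and Pdgfra are also defining markers of pericytes and of oligodendrocyte precursors, whose other markers were measured in the astrocyte sort, and their part in these levels was not tested. Igf1, a growth factor of the plaque-associated state, averaged 221 ± 139 CPM in microglia and 0.257 ± 0.353 CPM in astrocytes, whereas Igf2 (microglia 0.805±0.248, astrocytes 9.05±7.82 CPM) and Igf2r (microglia 0.841±0.0814, astrocytes 18.3±2.31 CPM) were astrocyte-biased and Igf1r was shared (microglia 10.2±2.52, astrocytes 20.1±6.51 CPM). Sema4d was microglia-biased (microglia 276±50.3, astrocytes 48.5±4.33 CPM) and its receptor Plxnb1 astrocyte-biased (microglia 0.428±0.49, astrocytes 159±19.5 CPM), and in the same family Sema4b (microglia 28.3±19.1, astrocytes 198±36.5 CPM) and Plxnb2 (microglia 259±60.4, astrocytes 53.2±6.91 CPM) were biased the other way. Thbs1 (microglia 26.7±10.5, astrocytes 2.93±6.27 CPM; adjusted p = 0.0628 without the mouse block) and its receptor Cd36 (microglia 35±15.3, astrocytes 0.567±0.691 CPM) were microglia-biased. Thbs2 was shared (microglia 3.79±1.92, astrocytes 9.39±4.01 CPM), and the thrombospondin-binding calcium channel subunit Cacna2d1 astrocyte-biased (microglia 0.00496±0.0111, astrocytes 4.18±0.801 CPM).

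Purine genes were split between the sorts. Extracellular ATP is cut by Entpd1 and Entpd2 and then by Nt5e to adenosine. Entpd1 had 608, 733, 675, 602 and 674 CPM in microglia, against 9.38, 13.1, 7.56, 23.3 and 15.6 CPM in astrocytes. Entpd2 had 0, 0, 0.0272, 0 and 0 CPM in microglia, against 223, 216, 182, 199.97 and 213 CPM in astrocytes, with 1 count over all 5 microglia libraries. The 2 enzymes thus lay in opposite sorts in every mouse. The ADP receptor P2ry12, by which microglia sense injury, had 7784, 10466, 10649, 7229 and 7679.5 CPM in microglia, against 8.73, 16.2, 9.85, 11.7 and 15.9 CPM in astrocytes. P2ry13 (microglia 1770.5±318, astrocytes 1.76±1.7 CPM), the UDP receptor P2ry6 (microglia 415±38.7, astrocytes 0.783±0.64 CPM) and the ATP channel P2rx7 (microglia 163±19.8, astrocytes 30.9±5.89 CPM) were microglia-biased too. P2rx4 was shared (microglia 163±40.2, astrocytes 40.6±5.41 CPM) and P2ry1 astrocyte-biased (microglia 0.259±0.327, astrocytes 2.34±1.67 CPM), a call lost without mouse 447 (adjusted p = 0.059) or 779 (adjusted p = 0.0622). Nt5e (microglia 0.552±0.493, astrocytes 4.73±1.27 CPM) and the adenosine kinase Adk (microglia 21.5±2.82, astrocytes 462±30.5 CPM) were astrocyte-biased, as were the adenosine receptors Adora1 (microglia 9.07±5.7, astrocytes 82.6±15.3 CPM), Adora2a (microglia 0.58±0.289, astrocytes 9.17±3.37 CPM) and Adora2b (microglia 1.26±1.09, astrocytes 104±8.68 CPM). Adora3 was microglia-biased (microglia 169.5±16.5, astrocytes 0.0284±0.0634 CPM). Glutamate genes lay with astrocytes: the transporters Slc1a2 (microglia 2.28±1.3, astrocytes 4057±312 CPM) and Slc1a3 (microglia 206±43.7, astrocytes 6996±937 CPM) and the receptors Grm3 (microglia 3.88±2.26, astrocytes 672±91.8 CPM) and Grm5 (microglia 0.0419±0.0408, astrocytes 2.55±1.22 CPM) were astrocyte-biased. Glutamine synthetase Glul was shared, lower in microglia at 413 ± 123 CPM in microglia and 1581 ± 246 CPM in astrocytes.

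Growth factor axes lay largely within the astrocyte sort. Both members were astrocyte-biased for Fgf1 (microglia 13.3±9.36, astrocytes 127±22 CPM) with Fgfr1 (microglia 1.85±0.975, astrocytes 207±20.2 CPM), Fgfr2 (microglia 0.0362±0.0229, astrocytes 105±19.1 CPM) and Fgfr3 (microglia 0.931±0.734, astrocytes 1279±142 CPM). The same was true for Bdnf (microglia 0.0146±0.0327, astrocytes 4.77±1.77 CPM) with Ntrk2 (microglia 0.413±0.475, astrocytes 1004±92.9 CPM), and for Hbegf (microglia 8.0±5.75, astrocytes 69±10.3 CPM) with Egfr (microglia 0.631±0.229, astrocytes 66.6±7.61 CPM). They were also astrocyte-biased for Edn3 (microglia 0.435±0.318, astrocytes 3.8±2.94 CPM) with Ednra (microglia 0.0702±0.144, astrocytes 37.5±6.03 CPM) and Ednrb (microglia 4.75±1.27, astrocytes 829±82.7 CPM), and for Jag1 (microglia 5.98±1.86, astrocytes 169.7±43.6 CPM) with Notch1 (microglia 17.3±3.94, astrocytes 76.7±9.51 CPM). Bmp4 (microglia 0.0953±0.183, astrocytes 2.38±0.991 CPM) and Bmp7 (microglia 0.069±0.0533, astrocytes 29.2±9.9 CPM) were astrocyte-biased with Bmpr1b (microglia 0.0772±0.115, astrocytes 128±23.3 CPM). The same held for Wnt5a (microglia 0.108±0.154, astrocytes 6.73±2.04 CPM) and Wnt7a (microglia 0.0858±0.15, astrocytes 59.7±9.12 CPM) with Fzd1 (microglia 0.0108±0.0241, astrocytes 28.5±8.07 CPM), Fzd2 (microglia 0.235±0.165, astrocytes 74.9±9.56 CPM) and Fzd10 (microglia 0.0473±0.0722, astrocytes 9.65±2.95 CPM). It also held for pleiotrophin Ptn (microglia 2.04±0.54, astrocytes 1002±139 CPM) and midkine Mdk (microglia 0.889±0.348, astrocytes 139±16.2 CPM) with Ptprz1 (microglia 0.308±0.276, astrocytes 657±56.7 CPM) and Sdc4 (microglia 317±63.1, astrocytes 1942±297 CPM). Notch2 (microglia 351±69.7, astrocytes 322±36.4 CPM), Bmpr2 (microglia 60.3±11.4, astrocytes 41.8±8.1 CPM), Bmpr1a (microglia 12.7±2.23, astrocytes 47.7±6.82 CPM), Tgfa (microglia 54.9±7.38, astrocytes 28.9±10.4 CPM), Egf (microglia 2.09±0.976, astrocytes 2.62±1.4 CPM) and Edn1 (microglia 4.83±1.95, astrocytes 2.71±1.5 CPM) were shared. Fgf2 (microglia 0.158±0.137, astrocytes 0.323±0.165 CPM), Bmp2 (microglia 1.72±1.04, astrocytes 0.484±0.596 CPM) and Dll1 (microglia 0.984±0.57, astrocytes 1.13±0.576 CPM) did not pass. Ntf3, the ligand of Ntrk3, was not tested (microglia 0, astrocytes 0.068±0.152 CPM). Vegfa was astrocyte-biased (microglia 0.983±0.277, astrocytes 52.5±10.2 CPM), and Vegfb (microglia 11.4±2.6, astrocytes 22.7±2.02 CPM) and the receptors Flt1 (microglia 10.7±5.81, astrocytes 42.6±24.7 CPM) and Kdr (microglia 4.06±1.65, astrocytes 13.7±4.48 CPM) were shared. Ptch1, the Hedgehog receptor, was astrocyte-biased (microglia 1.8±0.65, astrocytes 40.1±12.2 CPM), Smo was shared (microglia 15±1.33, astrocytes 31.5±5.51 CPM), and the ligand Shh had 0 counts in all 10 libraries.

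Lysosomal proteins that are also secreted signals showed a split of their own. Psap, the precursor of the saposins that help digest sphingolipids, had 1464, 2188, 2469.9, 2703 and 2409 CPM in microglia, against 814, 857, 784, 722 and 908 CPM in astrocytes. It was shared, with a log2 difference of 1.43 ± 0.19 (adjusted p = 0.000447). Its reported receptors were astrocyte-biased: Gpr37l1 had 0.216, 1.21, 2.64, 0.122 and 0 CPM in microglia, against 2067, 1986, 2129, 2132 and 1729 CPM in astrocytes, and Gpr37 averaged 0.518 ± 0.71 CPM in microglia and 218 ± 65.7 CPM in astrocytes. Grn, which encodes progranulin, had 3202, 2481, 2299, 3504 and 4503 CPM in microglia, against 77, 76.3, 69.9, 78.8 and 87.5 CPM in astrocytes, a log2 difference of 5.32 ± 0.19 (adjusted p = 3.4e-06). Its receptor Sort1 was shared at 78.4 ± 16 CPM in microglia and 83 ± 13.6 CPM in astrocytes and did not pass (log2 difference -0.09 ± 0.11, adjusted p = 0.504). Spp1, osteopontin, was microglia-biased (microglia 200.02±127, astrocytes 6.38±2.42 CPM) as were its receptors Cd44 (microglia 44.1±24.5, astrocytes 11.4±11.2 CPM; adjusted p = 0.0597 without mouse 779, and within 4-fold without mouse 439) and Itgb5 (microglia 449±68.6, astrocytes 57.6±4.37 CPM), while Itgav (microglia 96.2±22.6, astrocytes 162±17.7 CPM) and Itgb1 (microglia 173±38.5, astrocytes 72.8±7.4 CPM) were shared. Lgals3 (microglia 102±64.2, astrocytes 4.94±2.1 CPM), Lgals9 (microglia 596±91.4, astrocytes 9.99±2.34 CPM) and the receptor Havcr2 (microglia 431±22, astrocytes 0.29±0.495 CPM) were microglia-biased, and so were Cd274 (microglia 44.1±10.1, astrocytes 3.9±1.83 CPM) and its receptor Pdcd1 (microglia 81.5±64.5, astrocytes 0.161±0.348 CPM). Pdcd1lg2 was not tested (microglia 0.921±0.752, astrocytes 0 CPM).

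Lipid, lysosome and inflammatory genes were then read as lists, and each count is set against the 15.2% of all tested genes that were microglia-biased and the 22.6% that were astrocyte-biased. Counts of shared genes are set against the 8847 shared among all 17094 genes tested.

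**Figure D4:**
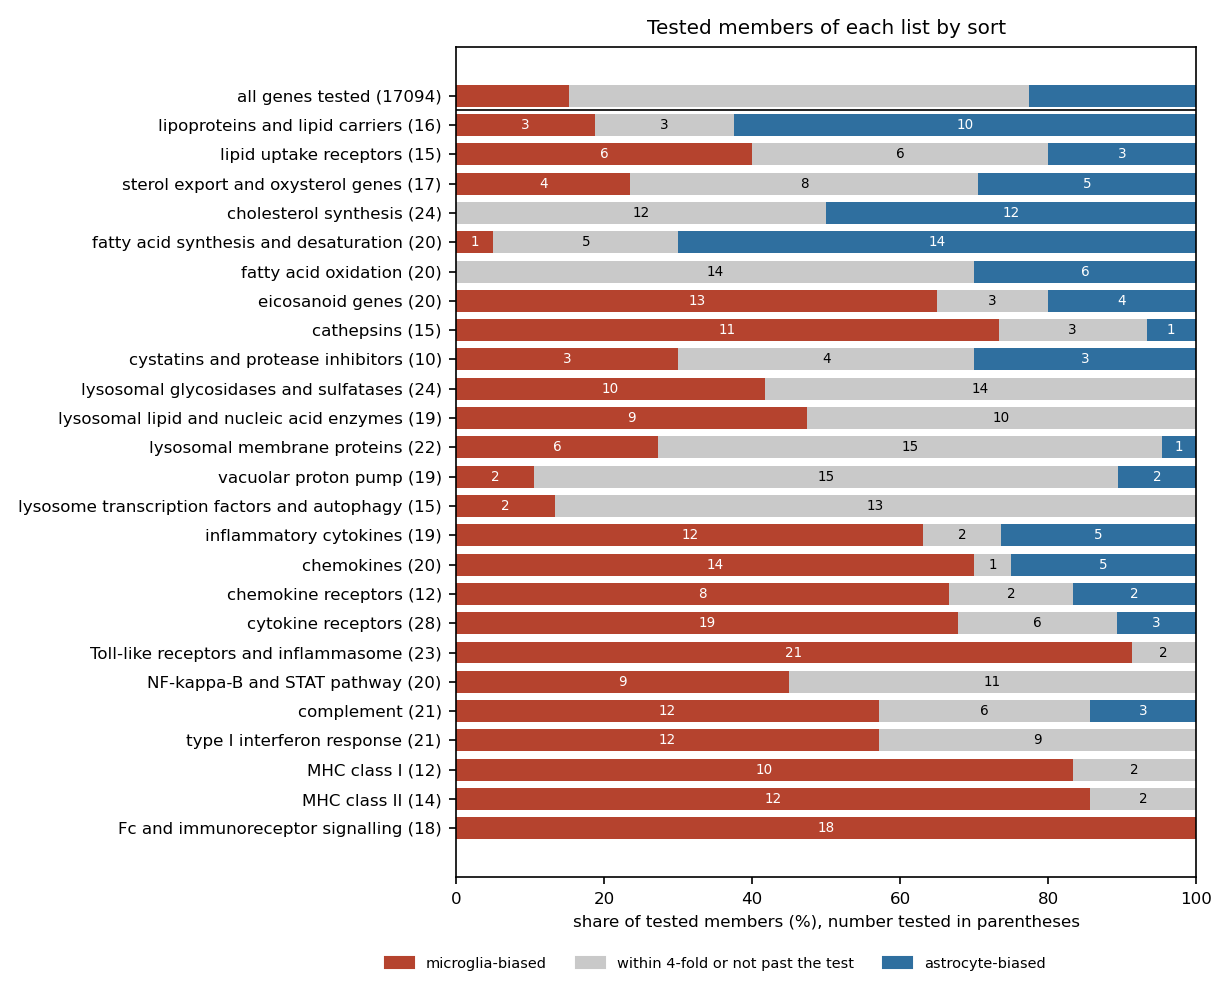
Share of the tested members of 25 lists that were microglia-biased (left), within 4-fold or not past the test (middle) or astrocyte-biased (right), with the number of genes in each bar and all tested genes on top. Fatty acid synthesis and lipoprotein genes lie mostly on the astrocyte side, cathepsins, eicosanoid genes, Toll-like receptors and MHC genes on the microglia side, and 15 of 19 proton pump subunits between them.

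Lipid synthesis lay mostly with astrocytes. Of 24 tested cholesterol synthesis genes, 21 were lower in microglia and 1 higher, 12 were astrocyte-biased and 0 microglia-biased, with a median log2 difference of -1.93 against -0.07 over all genes. Hmgcs1, which makes the HMG-CoA of the pathway and whose promoter is printed above, had 51.6, 57.7, 49.1, 81 and 102 CPM in microglia, against 185, 387, 442, 435 and 319 CPM in astrocytes, a log2 difference of -2.36 ± 0.25 (adjusted p = 0.00018). Msmo1, which removes methyl groups from sterols, had 63, 92.4, 56.8, 125 and 149.6 CPM in microglia, against 492, 1039, 1283, 1126 and 869 CPM in astrocytes, a log2 difference of -3.32 ± 0.30 (adjusted p = 8.35e-05). Both were lowest among astrocytes in mouse 439 and highest among microglia in mouse 779, and neither overlapped between the sorts. The squalene enzymes Fdft1 (log2 difference -3.52; microglia 31.9±14.9, astrocytes 347±89.3 CPM) and Sqle (-3.32; microglia 22.8±13.4, astrocytes 207±66.5 CPM) were astrocyte-biased as well. The exception was Ebp, a sterol isomerase, higher in microglia, at 113 ± 17.3 CPM in microglia and 33.5 ± 5.67 CPM in astrocytes (log2 difference 1.76 ± 0.19, adjusted p = 0.000172). The regulators Srebf2 (microglia 20.2±6.18, astrocytes 78.9±9.87 CPM) and Insig1 (microglia 133±61.8, astrocytes 632±158 CPM) were astrocyte-biased. Srebf2 lay at the 4-fold limit (log2 difference -2.01), and within it without mouse 439 (-1.96) or 447 (-1.96) or 469 (-1.87) and without the mouse block (-1.97).

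Of 20 fatty acid synthesis and desaturation genes, 14 were astrocyte-biased and 1 microglia-biased, 0 when scaled to total counts (median log2 difference -3.88). Acsl6, which activates long-chain fatty acids, averaged 0.377 ± 0.331 CPM in microglia and 808 ± 70.5 CPM in astrocytes. The elongase Elovl2 (microglia 0.209±0.233, astrocytes 215±39.1 CPM), the desaturase Fads2 (microglia 1.02±0.653, astrocytes 306±56.4 CPM) and the synthase Fasn (microglia 14.1±5.01, astrocytes 207±36 CPM) were astrocyte-biased too. Acsbg1 (microglia 1.28±0.768, astrocytes 1737±191 CPM) and Scd2 (microglia 130.2±56.9, astrocytes 1722±176 CPM), a desaturase, were astrocyte-biased with them. The microglia-biased member was Acsl4, which prefers arachidonic acid, at 186 ± 27.1 CPM in microglia and 38.4 ± 5.15 CPM in astrocytes. Acly (microglia 181±30.5, astrocytes 104±15.4 CPM), Elovl1 (microglia 207±37, astrocytes 93.8±16.3 CPM) and Acsl1 (microglia 45±3.6, astrocytes 24.6±2.25 CPM) were also higher in microglia, within 4-fold. Oligodendrocytes also make these lipids, and their markers summed to 170.02 to 290.3 CPM in microglia and 3247 to 13649 CPM in astrocytes, which was not tested as a part of these levels. Among astrocytes of mice 439 and 447, where that sum was lowest, Fasn had 178 and 169 CPM, and in the other 3 mice 205, 257 and 228 CPM. Of 20 fatty acid oxidation genes, 17 were lower in microglia and 2 higher, 6 of them astrocyte-biased (median log2 difference -1.26), among them Ppargc1a, a coactivator of mitochondrial genes (microglia 0.0786±0.108, astrocytes 109±5.41 CPM), and Ppara (microglia 0.0502±0.0974, astrocytes 9.52±1.28 CPM). The 2 genes higher in microglia were Acads (microglia 42±16.9, astrocytes 16.8±4.84 CPM) and Ppard (microglia 9.33±1.64, astrocytes 5.52±1.48 CPM), the call of Ppard being lost without mouse 447, 774 or 779 (adjusted p = 0.0699 to 0.0956). The mitochondrial enzymes Acadm (microglia 101±11, astrocytes 132±13.7 CPM), Hadhb (microglia 126±14.2, astrocytes 301±32.3 CPM) and Etfb (microglia 109±10.1, astrocytes 191±17.6 CPM) were shared and lower in microglia, and Hadha did not pass (microglia 135±17.5, astrocytes 105±9.93 CPM). The call of Acadm was lost without mouse 439, 447 or 774 (adjusted p = 0.064 to 0.085).

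Lipid carriage was mostly astrocytic and lipid uptake divided. Of 16 tested lipoprotein and lipid carrier genes, 10 were astrocyte-biased and 3 microglia-biased (median log2 difference -2.67). Clu, the lipoprotein clusterin, had 3.02, 3.27, 11.6, 1.66 and 4.72 CPM in microglia, against 7377, 8334, 7472, 6671 and 6733 CPM in astrocytes, a log2 difference of -10.88 ± 0.55 (adjusted p = 8.18e-06). Per kb of exon it ranked 8 in astrocytes among 21534 protein-coding genes. Lcat, which esterifies cholesterol in particles, averaged 0.269 ± 0.167 CPM in microglia and 243 ± 22.1 CPM in astrocytes. Apod (microglia 3.56±1.77, astrocytes 259±134 CPM) and the brain fatty acid binding protein Fabp7 (microglia 0.473±0.408, astrocytes 187±60.9 CPM) were astrocyte-biased as well. The microglia-biased carriers were Npc2, which carries cholesterol within the lysosome (microglia 2201±737, astrocytes 258±12.4 CPM), Apoc2 (microglia 9.55±3.3, astrocytes 0.173±0.218 CPM) and Fabp3 (microglia 29.5±22.2, astrocytes 1.37±0.174 CPM). Scp2, a sterol carrier that did not pass (microglia 217±22, astrocytes 224±33.4 CPM), and Pon2 (microglia 152±24.5, astrocytes 243±30.2 CPM) were shared. Mouse Apoe counts averaged 139 ± 88.3 CPM in microglia and 351 ± 27.1 CPM in astrocytes, and counts of the human APOE row, scaled the same way, 520.2 ± 359 CPM in microglia and 1292 ± 181 CPM in astrocytes. The labels do not say how reads were divided between the 2 rows. The human APOE row ran over 128, 549, 196, 958 and 770.5 CPM in microglia, against 1554, 1215, 1362, 1068 and 1261 CPM in astrocytes, so that it varied more between mice in microglia and did not overlap between the sorts.

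Of 15 tested lipid uptake receptors and related genes, 6 were microglia-biased and 3 astrocyte-biased (median log2 difference 0.63). The scavenger receptors Cd68 (microglia 3093±1154, astrocytes 1.76±2.78 CPM), Cd36, given above, and Msr1 (microglia 16.5±2.96, astrocytes 0.0081±0.0181 CPM) were microglia-biased. Lpl, the lipoprotein lipase, had 295, 399, 185, 669 and 802 CPM in microglia, against 0.0435, 0.0189, 0.572, 0.932 and 1.5 CPM in astrocytes. The reelin and lipoprotein receptors Vldlr (microglia 0.0424±0.0556, astrocytes 27±6.5 CPM) and Lrp8 (microglia 0.237±0.215, astrocytes 39.1±7.91 CPM) and the scavenger receptor Scarf1 (microglia 0.844±0.264, astrocytes 5.14±3.7 CPM) were astrocyte-biased. The general receptor Lrp1 (microglia 394±106, astrocytes 249±30.5 CPM), its chaperone Lrpap1 (microglia 691±257, astrocytes 428±30.2 CPM), Lrp10 (microglia 43±7.56, astrocytes 55.9±8.06 CPM) and Sorl1 (microglia 40.5±17.8, astrocytes 133±23.6 CPM) were shared. Sterol exporters differed from each other. Abca1 had 123, 129, 158, 121 and 77.7 CPM in microglia, against 132, 116, 90.1, 121 and 164 CPM in astrocytes, overlapping between the sorts with a log2 difference of -0.04 ± 0.25 (adjusted p = 0.904). Abcg1 had 1502, 922, 1244, 966 and 1104 CPM in microglia, against 62.6, 56.5, 186, 189 and 125 CPM in astrocytes, and was microglia-biased. Abcg4 was astrocyte-biased (microglia 0.0455±0.0728, astrocytes 20.8±2.06 CPM). Each sort held its own oxysterol enzymes: Ch25h, which makes the immune oxysterol 25-hydroxycholesterol, averaged 56 ± 42.5 CPM in microglia and 0.549 ± 1.23 CPM in astrocytes, while Cyp46a1 (microglia 1.79±0.575, astrocytes 50.8±10.9 CPM) and Cyp7b1 (microglia 0.0862±0.193, astrocytes 84.8±9.7 CPM) were astrocyte-biased. Mylip, which marks lipoprotein receptors for degradation (microglia 158±23.8, astrocytes 5.97±3.25 CPM), and the lysosomal lipase Lipa (microglia 298±72.4, astrocytes 63.6±9.66 CPM) were microglia-biased. Lipa stood at the 4-fold limit without mouse 779, where it was not called biased (log2 difference 2.00). The sterol sensor Nr1h3 (microglia 1.89±1.24, astrocytes 17.1±5.94 CPM) and Abca2 (microglia 18±4.9, astrocytes 96.1±18.9 CPM) were astrocyte-biased, and Soat1, which esterifies cholesterol, shared (microglia 264±70.3, astrocytes 383±48.7 CPM).

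Eicosanoid genes lay mostly with microglia, 13 of 20 tested being microglia-biased and 4 astrocyte-biased (median log2 difference 4.62). The leukotriene genes Alox5ap (microglia 553±158, astrocytes 4.2±9.23 CPM), Ltc4s (microglia 184±22, astrocytes 0.0512±0.0398 CPM) and the receptor Cysltr1 (microglia 95.8±21.9, astrocytes 0.0081±0.0181 CPM), the cyclooxygenase Ptgs1 (microglia 1155±151, astrocytes 45.7±15.2 CPM) and the synthase Hpgds (microglia 695±59.3, astrocytes 0.789±0.53 CPM) were among them. The other prostaglandin D synthase, Ptgds, was astrocyte-biased at 4.79 ± 1.59 CPM in microglia and 720.3 ± 301 CPM in astrocytes. So were Ptges (microglia 0.741±0.374, astrocytes 26.9±2.58 CPM) and the lipase Mgll (microglia 64.6±10.9, astrocytes 487±75.2 CPM), which frees arachidonic acid from endocannabinoids, and the amide hydrolase Faah (microglia 0.0409±0.0283, astrocytes 6.56±2.39 CPM). The inducible Ptgs2 had 7.84, 8.13, 9.77, 8.62 and 9.82 CPM in microglia, against 0, 0, 0.316, 19.2 and 0.0215 CPM in astrocytes. It was at or below 0.316 CPM in 4 astrocyte libraries and above every microglia library in that of mouse 774. Its call (adjusted p = 0.0242) was lost without any 1 of the other 4 mice (adjusted p = 0.0604 to 0.0821) and without the mouse block (adjusted p = 0.5). Ptges3 did not pass (microglia 416±43.1, astrocytes 359.7±13.5 CPM).

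**Figure D5:**
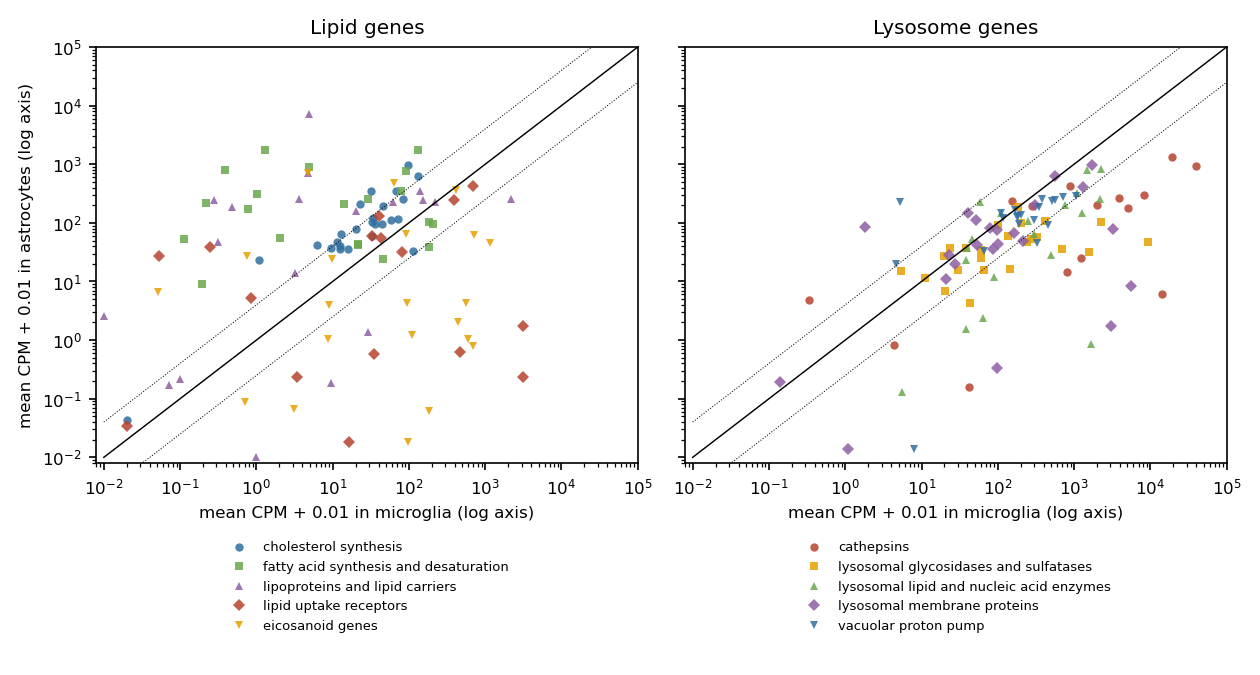
Mean CPM of each gene in microglia (x axis) against astrocytes (y axis), both on log axes after adding 0.01, for 5 lipid lists and 5 lysosome lists, with a solid line at equality and dotted lines at 4-fold. Cholesterol and fatty acid synthesis genes lie above the line, cathepsins mostly below it with Ctsd, Ctsb and Ctss at the far right, and proton pump subunits along it.

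Cathepsin genes lay mostly with microglia. Of 15 cathepsins and related proteases, 11 were microglia-biased and 1 astrocyte-biased (median log2 difference 3.85). Ctsd, an aspartic protease whose promoter is printed above, had 31254, 37857, 19269, 47671 and 60963 CPM in microglia, against 844, 988, 903, 1003 and 953 CPM in astrocytes, a log2 difference of 5.29 ± 0.29 (adjusted p = 1.15e-05). Ctss, a cysteine protease that also trims the MHC class II invariant chain, had 13759, 15044, 11259, 13521 and 16688 CPM in microglia, against 1.35, 3.38, 3.35, 14.2 and 8.87 CPM in astrocytes, a log2 difference of 11.57 ± 0.69 (adjusted p = 1.46e-05). Ctsd varied with the mouse in microglia, lowest in mouse 469 and highest in mouse 779, and stood between 844 and 1003 CPM in astrocytes. Per kb of exon Ctsd ranked 3 and Ctss 5 among 21534 protein-coding genes in microglia, and 65 and 6021 in astrocytes. Ctsb (microglia 19391±7179.6, astrocytes 1341±81.9 CPM), Ctsz (microglia 5105±1900.3, astrocytes 179.5±21.5 CPM), Lgmn (microglia 8181±366, astrocytes 301±36 CPM) and Ctsl (microglia 1985±708, astrocytes 199.8±16.8 CPM) were microglia-biased as well. Ctsk, known as the collagen-degrading protease of bone, was astrocyte-biased at 0.327 ± 0.184 CPM in microglia and 4.86 ± 3.44 CPM in astrocytes. Ctso was lower in microglia within 4-fold (microglia 155±11.8, astrocytes 233±8.63 CPM), and Ctsf (microglia 284±26, astrocytes 194±12.7 CPM) and Tpp1 (microglia 874±161, astrocytes 424±16.2 CPM) were shared. Ctsa, the protective protein of other lysosomal enzymes, was microglia-biased at 3937 ± 1143 CPM in microglia and 264 ± 12.8 CPM in astrocytes.

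The list of cystatins and other protease inhibitor genes did not follow one sort, though its cystatins named here, Cst3 and Cst7, were both higher in microglia. Cst3, cystatin C, which inhibits cysteine cathepsins outside cells, had 30180.1, 36140.5, 31172, 27928 and 30976 CPM in microglia, against 10719, 10338, 8749, 9077 and 9434 CPM in astrocytes. It ranked 1 per kb in microglia and 2 in astrocytes, and its difference of 1.69 ± 0.16 (adjusted p = 8.65e-05) was within 4-fold. Timp3 (microglia 1.13±0.759, astrocytes 439.99±44.4 CPM) and Timp4 (microglia 0.278±0.28, astrocytes 512±61.6 CPM), inhibitors of metalloproteases, were astrocyte-biased, as was Serpina3n (microglia 0.0248±0.0554, astrocytes 24.9±6.97 CPM). Timp2 (microglia 168±38.2, astrocytes 29.8±6.37 CPM), Serpinf1 (microglia 44.5±14.9, astrocytes 5.6±2.64 CPM) and Cst7 were microglia-biased. Serpine2 was shared at 2894 ± 1165 CPM in microglia and 1668 ± 231 CPM in astrocytes, and so was Serpinb6a (microglia 17.5±4.86, astrocytes 41.4±1.7 CPM).

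Other lysosomal enzymes were microglia-biased or shared. Of 24 glycosidases and sulfatases, 10 were microglia-biased, 0 astrocyte-biased and 14 shared (median log2 difference 1.39), with 6 microglia-biased when scaled to total counts. Hexa, a hexosaminidase subunit (microglia 2265±825, astrocytes 105±16.6 CPM), Man2b1 (microglia 1552±367, astrocytes 31.4±4.58 CPM) and Gusb (microglia 688±268, astrocytes 35.3±3.99 CPM) were microglia-biased. Gaa (microglia 186±65.4, astrocytes 185±26.2 CPM) and Idua (microglia 100.02±18.5, astrocytes 92.5±7.85 CPM) did not pass. Fuca1 was higher in microglia within 4-fold (microglia 420.3±111, astrocytes 109±12.9 CPM), and the hyaluronidases Hyal1 (microglia 5.41±1.55, astrocytes 15.3±2.54 CPM) and Hyal2 (microglia 23.9±2.78, astrocytes 37.2±4.03 CPM) were lower. Of 19 lysosomal lipid and nucleic acid enzymes, 9 were microglia-biased (median log2 difference 1.91). Pld4, an exonuclease whose promoter is printed above, averaged 1687 ± 115 CPM in microglia and 0.841 ± 0.962 CPM in astrocytes, and Pla2g15, a lysosomal phospholipase, 499.8 ± 79.5 CPM in microglia and 28.2 ± 3.02 CPM in astrocytes. Pld3 (microglia 1254±551, astrocytes 147±7.01 CPM) was microglia-biased with them, and Asah1 (microglia 1109±121, astrocytes 318±48.8 CPM), Ppt1 (microglia 766±158, astrocytes 200.1±13.2 CPM), Gm2a (microglia 1482±292, astrocytes 785±35 CPM) and Acp2 (microglia 253±12.9, astrocytes 109±13.7 CPM) were higher in microglia within 4-fold. Smpd1, the acid sphingomyelinase, was lower in microglia, at 58.8 ± 5.5 CPM in microglia and 228 ± 4.89 CPM in astrocytes. The cholesterol transporter Npc1, the partner of Npc2, was lower as well (microglia 110.4±16.9, astrocytes 145±5.96 CPM; log2 difference -0.41 ± 0.12, adjusted p = 0.0206), a call lost without mouse 439 (adjusted p = 0.0793) or 447 (adjusted p = 0.0773).

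Most genes of the lysosomal membrane and its proton pump were shared, though more of them passed as higher than as lower in microglia. Of 22 tested membrane proteins, 15 were shared, 6 microglia-biased and 1 astrocyte-biased (median log2 difference 0.85). At any size of difference, 13 passed as higher in microglia and 3 as lower. Lamp1 averaged 306 ± 58.6 CPM in microglia and 200.2 ± 26.4 CPM in astrocytes, and Laptm4a, which did not pass, 557 ± 115 CPM in microglia and 619 ± 26.9 CPM in astrocytes. Lamp2 was higher in microglia within 4-fold (microglia 1291±305, astrocytes 401±31.4 CPM), and Laptm4b (microglia 41±10.5, astrocytes 146±12.6 CPM) and Tmem106b (microglia 51.4±5.21, astrocytes 111±11.3 CPM) were lower. Against them Laptm5, a lysosomal protein of blood-derived lineages, averaged 5551 ± 753 CPM in microglia and 8.22 ± 13.1 CPM in astrocytes, and the peptide transporter Abcb9 1.82 ± 1.12 CPM in microglia and 84 ± 9.58 CPM in astrocytes. Of 19 tested subunits of the vacuolar proton pump, 15 were shared, 2 microglia-biased and 2 astrocyte-biased (median log2 difference 0.90). At any size of difference, 14 subunits passed as higher in microglia and 3 as lower. The biased subunits were alternative forms or single subunits: Tcirg1 (microglia 324±25.1, astrocytes 46.1±4.18 CPM) and Atp6v1c1 (microglia 451±112, astrocytes 90.8±10.8 CPM) on the microglia side. Atp6v0e2 (microglia 5.22±2.28, astrocytes 231±22.3 CPM) and Atp6v1g2 (microglia 4.59±0.395, astrocytes 19.9±5.91 CPM) stood on the astrocyte side, Atp6v1g2 within 4-fold without mouse 439 (log2 difference -1.93, against -2.08 with it), which left 1 astrocyte-biased subunit. The pump's membrane ring subunit Atp6v0c averaged 507 ± 125 CPM in microglia and 235 ± 8.87 CPM in astrocytes. The means of Atp6ap1, Atp6ap2, Atp6v0a1, Atp6v0b, Atp6v0d1, Atp6v0e, Atp6v1a, Atp6v1d, Atp6v1e1, Atp6v1f, Atp6v1g1 and Atp6v1h lay between 111 CPM (Atp6v1h) and 1054 CPM (Atp6ap1) in microglia, and between 109.8 CPM (Atp6v1f) and 288 CPM (Atp6ap1) in astrocytes. Of 15 lysosome transcription factors and autophagy genes, 13 were shared, Tfe3 was microglia-biased (microglia 98.1±15.5, astrocytes 17.9±2.14 CPM), and Tfeb did not pass (microglia 20.1±1.99, astrocytes 14.9±5.1 CPM; log2 difference 0.50 ± 0.24, adjusted p = 0.105). The second microglia-biased gene, Tfec, had 1.2 CPM in microglia and 0 counts in astrocytes. Of the autophagosome genes, Gabarap was higher in microglia (microglia 510.2±118, astrocytes 218±17.6 CPM), Gabarapl1 (microglia 27.7±8.79, astrocytes 67.5±16.6 CPM), Map1lc3b (microglia 542±86.9, astrocytes 795±72.2 CPM) and Optn (microglia 9.52±4.6, astrocytes 21.4±4.39 CPM) were lower, and Sqstm1 did not pass (microglia 146±17.9, astrocytes 144±13.3 CPM). The call of Map1lc3b was lost without mouse 447 (adjusted p = 0.0534), and that of Optn without mouse 439 or 447 (adjusted p = 0.0523 to 0.0754). This list's median log2 difference of 0.44 turned to -0.03 when scaled to total counts, and that of the sterol export list from 0.30 to -0.18.

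Inflammatory signals were mostly microglial, with a named set of astrocytic exceptions. Of 19 tested cytokines, 12 were microglia-biased and 5 astrocyte-biased (median log2 difference 6.02), and without mouse 439 the first count was 10. Tnf had 135, 129.7, 189.6, 135 and 122 CPM in microglia, against 0, 0, 0.158, 5.23 and 0 CPM in astrocytes, a log2 difference of 9.75 ± 1.47 (adjusted p = 0.000934). Il1a averaged 373 ± 81.3 CPM in microglia and 2.08 ± 4.27 CPM in astrocytes, and Il1b had 207, 174, 129.9, 128 and 213 CPM in microglia, against 0, 0, 0.671, 132 and 0 CPM in astrocytes. Il1b was at most 0.671 CPM in 4 astrocyte libraries, and the value of mouse 774 overlapped with microglia. Its log2 difference was 9.13 ± 2.43 (adjusted p = 0.0127), 10.57 without mouse 774 (adjusted p = 0.00042), and its call was lost without the mouse block (adjusted p = 0.198). Osm (microglia 84.4±17, astrocytes 1.15±2.55 CPM), Il16 (microglia 132±30.1, astrocytes 0.967±0.81 CPM) and Tnfsf13b (microglia 37.5±9.18, astrocytes 0.166±0.145 CPM) were microglia-biased, and so was Il6, which had 10.2, 18.9, 9.69, 7.25 and 9.68 CPM in microglia, against 0, 0, 0, 0 and 0 CPM in astrocytes. The astrocyte-biased cytokines were Il33, Il34, Tgfb2 and Tgfb3, described above, and Il18. Il18, a cytokine released by inflammasomes, had 47.2, 50.6, 39.3, 36.3 and 40.3 CPM in microglia, against 251, 308, 348, 239 and 269 CPM in astrocytes, a log2 difference of -2.72 ± 0.15 (adjusted p = 1.07e-05). The inflammasome genes Nlrp3 (microglia 35.6±6.74, astrocytes 1.34±2.82 CPM), Pycard (microglia 272±46.5, astrocytes 1.47±0.989 CPM) and Casp1 (microglia 53.8±7.15, astrocytes 1.25±0.951 CPM) lay with microglia. Il18bp, which binds the cytokine, was microglia-biased (microglia 10.7±4.28, astrocytes 2.49±1.9 CPM), and Il18r1 was not tested (microglia 0.385±0.461, astrocytes 0.0162±0.0362 CPM).

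Most cytokine receptors were microglia-biased. Of 28 tested cytokine receptors, 19 were microglia-biased, 3 astrocyte-biased and 6 shared (median log2 difference 3.65). Tnfrsf1b, a receptor for tumour necrosis factor found on immune cells, averaged 169.7 ± 24.8 CPM in microglia and 2.38 ± 3.87 CPM in astrocytes, and the broad receptor Tnfrsf1a was shared at 199 ± 16.5 CPM in microglia and 73 ± 12 CPM in astrocytes. The signalling interleukin-1 receptor Il1r1 averaged 3.26 ± 1.88 CPM in microglia and 3.29 ± 1.81 CPM in astrocytes and did not pass. The decoy Il1r2 had 76.1, 14.8, 11.5, 4.43 and 11.7 CPM in microglia, against 0, 0.113, 0.0395, 73 and 0.0644 CPM in astrocytes. It was highest among microglia in mouse 439 and among astrocytes in mouse 774. Its call (adjusted p = 0.0386) was lost without any 1 of the mice other than 774 (adjusted p = 0.0943 to 0.119) and without the mouse block (adjusted p = 0.734). The antagonist Il1rn had 18.8, 10.6, 7.78, 7.64 and 10.2 CPM in microglia, against 0, 0, 0, 25.9 and 0 CPM in astrocytes. Its call (adjusted p = 0.0209) was lost in the same cases (adjusted p = 0.0637 to 0.0732, and 0.577 without the block). In the interleukin-6 family the ligands Osm and Il6 and the receptor Il6ra (microglia 55±17.1, astrocytes 1.9±1.1 CPM) were microglia-biased, and Il6st (microglia 156±42.5, astrocytes 53.5±7.45 CPM) and Lifr (microglia 127±29, astrocytes 156±12.7 CPM) were shared. Osmr (microglia 0.36±0.256, astrocytes 13.2±7.23 CPM) and Cntfr (microglia 0.0389±0.0871, astrocytes 20.3±4.58 CPM) were astrocyte-biased. Lif did not pass (microglia 0.59±0.599, astrocytes 3.21±1.51 CPM), and Cntf was not tested (microglia 0.0658±0.0732, astrocytes 0.164±0.14 CPM). Tgfbr3, which presents TGF-beta, was astrocyte-biased (microglia 1.24±0.674, astrocytes 9.48±3.26 CPM), and the growth factor receptor Csf3r microglia-biased (microglia 526±86, astrocytes 9.09±20 CPM). Il10ra (microglia 391±90.4, astrocytes 0.705±1.58 CPM) and Il10rb (microglia 193±15.4, astrocytes 27.3±6.43 CPM) were microglia-biased, while Il10 was not tested (microglia 0.395±0.296, astrocytes 0 CPM). The interferon gamma receptors Ifngr1 (microglia 1215±198, astrocytes 99.3±12.8 CPM) and Ifngr2 (microglia 289±21.1, astrocytes 22.5±2.73 CPM) were microglia-biased. Ifnar1 was shared (microglia 57.5±7.18, astrocytes 56.4±2.81 CPM) and Ifnar2 microglia-biased (microglia 132±20.6, astrocytes 25±5.46 CPM), while Ifng was not tested (microglia 0.263±0.22, astrocytes 0.00783±0.0107 CPM). Ifnb1 was microglia-biased at low levels (microglia 0.451±0.19, astrocytes 0.0789±0.177 CPM), a call lost without mouse 439, 447, 774 or 779 (adjusted p = 0.0628 to 0.0711) and without the mouse block (adjusted p = 0.0773).

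Chemokines followed the same division. Of 20 tested, 14 were microglia-biased and 5 astrocyte-biased (median log2 difference 7.25). Ccl4, which attracts immune cells, had 2466, 2859, 2766, 3188 and 3099.96 CPM in microglia, against 0.414, 0.302, 3.2, 14.1 and 0.386 CPM in astrocytes, and Ccl3 averaged 917 ± 200.4 CPM in microglia and 1.65 ± 3.42 CPM in astrocytes. Ccl5 (microglia 26.4±11.4, astrocytes 0.653±0.98 CPM) and the receptor Ccr1 (microglia 50±32.7, astrocytes 5.47±12.2 CPM) were microglia-biased with them. Without the mouse block Ccr1 did not pass (adjusted p = 0.0972). Ccl6 had 879, 1439, 563, 1683 and 2328 CPM in microglia, against 0, 0, 0, 27.4 and 0 CPM in astrocytes, so that its astrocyte mean rested on mouse 774 alone. The monocyte chemokines Ccl2 (microglia 153±52.5, astrocytes 0.298±0.201 CPM), Ccl7 (microglia 54.9±33.3, astrocytes 0.205±0.415 CPM) and Ccl12 (microglia 206±25.2, astrocytes 0.436±0.582 CPM) were microglia-biased with their receptor Ccr2 (microglia 58.7±41.2, astrocytes 0.0522±0.0764 CPM), which is also 1 of the 14 monocyte and neutrophil markers. Cxcl10 (microglia 24.4±3.06, astrocytes 2.1±1.32 CPM), its receptor Cxcr3 (microglia 5.59±2.07, astrocytes 0.0162±0.0362 CPM) and Cxcl16 (microglia 116±24.5, astrocytes 0.432±0.314 CPM) were microglia-biased. Cxcl9 was not tested (microglia 0.927±0.45, astrocytes 0.0081±0.0181 CPM), and Cxcr6, the receptor of Cxcl16, did not pass (microglia 0.66±0.578, astrocytes 0.729±0.39 CPM). Cxcl2, a neutrophil attractant, had 92, 66.4, 43.7, 41.6 and 67.6 CPM in microglia, against 0, 0, 0.414, 94.7 and 0 CPM in astrocytes. The astrocyte library of mouse 774 was highest of all 10. Its call (adjusted p = 0.0187) was lost without any 1 of the mice other than 774 (adjusted p = 0.053 to 0.0648) and without the mouse block (adjusted p = 0.379). On the astrocyte side stood Cxcl14 (microglia 2.45±2.79, astrocytes 352±94.6 CPM) and Cxcl12 (microglia 2.96±1.55, astrocytes 56.3±30.3 CPM), with the scavenging receptor Ackr3 (microglia 2.04±0.848, astrocytes 26.1±6.15 CPM), while the signalling receptor Cxcr4 was shared (microglia 9.27±2.05, astrocytes 3.56±2.15 CPM). Ccl27a (microglia 2.25±0.766, astrocytes 11.5±1.26 CPM), Cxcl5 (microglia 0.00544±0.0122, astrocytes 2.17±1.14 CPM) and the scavenging receptor Ackr1 (microglia 0.357±0.678, astrocytes 5.62±11.3 CPM) were astrocyte-biased too, and Ccl25 was lower in microglia within 4-fold (microglia 1.58±0.464, astrocytes 3.56±0.903 CPM). Ackr1 lost its call without the mouse block (adjusted p = 0.0575), and Ccl25 without mouse 439, 447 or 469 (adjusted p = 0.052 to 0.0578). Among astrocytes Ackr1 had 25.8 CPM in mouse 439 and 0.158 to 1.37 CPM in the other mice. Without mouse 439 the number of astrocyte-biased chemokine receptors fell from 2 to 1.

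Sensors and antigen presentation lay with microglia almost throughout. Of 23 Toll-like receptor and inflammasome genes, 21 were microglia-biased (median log2 difference 6.48). They included Tlr7 (microglia 158±10.3, astrocytes 0.123±0.244 CPM), Tlr13 (microglia 186±19.1, astrocytes 0.92±2.05 CPM) and Cd14 (microglia 2017±429.5, astrocytes 37.1±81.3 CPM). For Cd14 the astrocyte library of mouse 774 had 182 CPM and no other astrocyte library more than 1.28 CPM. Of the other 2, Ticam1, an adaptor of Tlr3, did not pass (microglia 27.7±5.9, astrocytes 20.1±3.42 CPM). Tlr3, the receptor for double-stranded RNA, was lower in microglia, with 49.3, 56, 67.3, 64.6 and 58.7 CPM in microglia, against 113, 184, 137, 118 and 142 CPM in astrocytes, a log2 difference of -1.22 ± 0.15 (adjusted p = 0.000345). All 18 Fc and immunoreceptor signalling genes were microglia-biased (median log2 difference 9.52), such as Fcgr3 (microglia 2735±631, astrocytes 2.31±4.08 CPM) and Tyrobp, the adaptor of Trem2 (microglia 3761±1364, astrocytes 6.26±11 CPM). Of 14 MHC class II genes 12 were microglia-biased (median log2 difference 9.83), with Cd74 at 1771 ± 441 CPM in microglia and 0.978 ± 1.88 CPM in astrocytes. Of 12 MHC class I genes 10 were (median log2 difference 4.12), among them B2m (microglia 5268±1814, astrocytes 158±24.2 CPM), H2-D1 (microglia 3613±1194, astrocytes 135±39.9 CPM) and H2-K1 (microglia 981±72.7, astrocytes 115±16.7 CPM). MHC class II genes are also high in border macrophages, whose markers were measured in the microglia sort at the sums given above. Of 21 type I interferon response genes, 12 were microglia-biased and 0 astrocyte-biased (median log2 difference 2.12), and Ifit3 (microglia 73.7±32.4, astrocytes 57.3±6.9 CPM), Ifit1 (microglia 17.5±7.45, astrocytes 16.4±6.46 CPM) and Rsad2 (microglia 10.2±4.9, astrocytes 9.45±1.1 CPM) did not pass. Of 20 NF-kappa-B and STAT pathway genes, 18 were higher in microglia and 9 microglia-biased (median log2 difference 1.87). They were led by the inhibitors Tnfaip3 (microglia 217±107, astrocytes 3.07±5.0 CPM) and Socs3 (microglia 347±219, astrocytes 2.48±1.3 CPM). The inhibitor Nfkbia averaged 1836 ± 638 CPM in microglia and 124 ± 34.6 CPM in astrocytes, and Jak1 was higher within 4-fold (microglia 246±37.3, astrocytes 153±17.9 CPM). The dissociation genes, which were higher in microglia too, are given above, and their part in these levels was not tested.

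Complement was divided by component. Of 21 tested genes, 12 were microglia-biased, 3 astrocyte-biased and 5 shared (median log2 difference 3.22). C1qb averaged 11500.1 ± 1633 CPM in microglia and 4.68 ± 2.41 CPM in astrocytes, and the 3 subunits of C1q were microglia-biased. The receptors C3ar1 (microglia 651±109, astrocytes 0.45±0.793 CPM) and C5ar1 (microglia 466±63, astrocytes 13.2±29.2 CPM) and Itgb2, the partner of Itgam in the C3 receptor (microglia 1062±198, astrocytes 4.88±9.86 CPM), lay with microglia. C4b, which C1 cuts, was lower in microglia with 40.6, 10.6, 21.8, 21 and 19.5 CPM in microglia, against 80.7, 53.6, 33.1, 98.6 and 97.7 CPM in astrocytes, a log2 difference of -1.70 ± 0.31 (adjusted p = 0.00242). C3, the central component, averaged 12.3 ± 9.48 CPM in microglia and 1.51 ± 1.17 CPM in astrocytes, and Hc, which encodes C5, 0.249 ± 0.42 CPM in microglia and 7.26 ± 4.52 CPM in astrocytes. The membrane and serum inhibitors Serping1 (microglia 0.399±0.223, astrocytes 8.06±1.5 CPM), Cd59a (microglia 3.37±1.4, astrocytes 13.8±5.67 CPM) and Cd46 (microglia 0.82±0.492, astrocytes 4.1±0.539 CPM) lay with astrocytes, and C2 was lower in microglia within 4-fold (microglia 1.24±0.452, astrocytes 3.75±1.21 CPM). Cd59a was within 4-fold without mouse 439 (-1.95) or 469 (-1.88), its log2 difference being -2.05.

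Genes known from plaque-bearing brains were read in both sorts. Of 20 plaque-associated microglia genes 16 were microglia-biased (median log2 difference 4.74), and 1, Apoc1, was astrocyte-biased (microglia 3.2±1.54, astrocytes 14.2±3.81 CPM), which was within 4-fold without mouse 469. Axl, Ank (microglia 211±132, astrocytes 101±26.7 CPM) and the tetraspanin Cd63 (microglia 1737±753, astrocytes 959±79.3 CPM) did not pass, and Cd9 was microglia-biased (microglia 2739±1026, astrocytes 219±60.4 CPM). The list summed to 61604, 71859, 39121, 91122 and 116595 CPM in microglia, against 3578, 4037, 4041, 4118 and 4028 CPM in astrocytes. Its 19 members with at least 10 CPM in microglia varied between mice by a median of 4.36-fold from lowest to highest microglia library, against 1.45-fold for the 18 identity genes and 1.55-fold for all 8314 genes at that level, which is a description and was not tested. Clec7a had 194, 315, 85.1, 406 and 631 CPM in microglia, against 0, 0, 0, 11.2 and 0 CPM in astrocytes. Itgax had 60.6, 123, 50.9, 186 and 222 CPM in microglia, against 0, 0.0378, 0, 0.912 and 0 CPM in astrocytes. Gpnmb had 57, 75, 10.8, 207 and 194 CPM in microglia, against 6.14, 6.31, 4.99, 2.13 and 2.6 CPM in astrocytes. In all 3 genes mouse 469 was lowest and mice 774 and 779 were highest among microglia, the order also seen for Cst7, Lpl and Axl. The microglia of mouse 469 also had the highest sum of dissociation genes and those of mouse 779 the lowest, and the part of either in the other was not tested.

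Reactive astrocyte genes were not confined to astrocytes. Of 19 tested, 6 were astrocyte-biased, 5 microglia-biased and 7 shared (median log2 difference -0.85). Gfap, Serpina3n, Osmr, Fbln5 (microglia 0.204±0.245, astrocytes 28.7±17.2 CPM), Aspg (microglia 0, astrocytes 5.64±2.1 CPM) and Ptx3 (microglia 0, astrocytes 1.76±1.37 CPM) were astrocyte-biased. Vim (microglia 68.8±53.2, astrocytes 76.1±2.93 CPM) and S100a6 (microglia 50.9±68.9, astrocytes 47.4±6.97 CPM) did not pass. Lcn2, lipocalin 2, had 505, 29.9, 7.59, 8.01 and 29.5 CPM in microglia, against 4.62, 0.0567, 0.0395, 21.3 and 0.0429 CPM in astrocytes, highest in the microglia of mouse 439. Its call (adjusted p = 0.0151) was lost without mouse 447, 469 or 779 (adjusted p = 0.0512 to 0.0569). Cd44, Ggta1 (microglia 71.6±23.3, astrocytes 14.3±3.62 CPM), Cd14 and Ch25h were microglia-biased with it, and without mouse 779, where Cd44 and Lcn2 did not pass, the count was 3. The log2 difference of Cd44 was 2.19, and within 4-fold without mouse 439 (1.63) and without the mouse block (1.95).

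The same comparison in APPPS1 Cre-positive mice gave the same calls for most genes. Both libraries of mouse 459 in that group held the identity genes of the other cell type, and it was left out, which leaves 4 mice and 8 libraries. Of 2604 microglia-biased genes, 2541 were tested there and 2326 (91.5%) were microglia-biased again. Of 3866 astrocyte-biased genes, 3729 were tested and 3527 (94.6%) were astrocyte-biased again. Of all genes tested in Cre-positive mice, 2698 (15.4%) were microglia-biased and 4184 (23.9%) astrocyte-biased. The repeated calls were 86.2% of the first and 84.3% of the second, and 0 genes carried the opposite call. With mouse 459 as labelled, 0 genes passed with edgeR (690 at an unadjusted p under 0.05). For single genes the log2 differences in Cre-positive mice stood at -8.19 for Il34, -10.06 for Il33, 3.54 for Pros1, 5.41 for Ctsd, -11.62 for Clu, -1.57 for Hmgcs1 and -0.15 for Abca1. Cre acts on astrocytes in those mice, so the repeat is not a copy of the same condition.

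Whether the difference between the sorts depended on amyloid was tested as an interaction over 14 libraries, 5 APPPS1 and 2 amyloid-free Cre-negative mice, on 20422 genes. Of these 0 passed with edgeR (0%), with 862 at an unadjusted p under 0.05, 59 passed with DESeq2 (45 with a positive interaction and 14 with a negative one) and 0 with limma-voom. A design with 2 amyloid-free mice limits what this test can call. Values are given for the genes of lowest p, and for Spp1 and Csf1, which were chosen after their values were seen. Cd72, a receptor of the plaque-associated state, had 62.8 CPM in APPPS1 microglia and 24.3 and 13.6 CPM in the amyloid-free microglia, and 0.0082 CPM in APPPS1 astrocytes and 0.39 and 0.314 CPM in the amyloid-free astrocytes (interaction log2 6.78 ± 0.70, adjusted p = 0.162). Cd72 was near 0 in astrocytes of both genotypes. The interaction value includes that part, which rests on few counts, and is not the size of the microglial difference. Spp1 had 202 CPM in APPPS1 microglia and 8.14 and 2.97 CPM in the amyloid-free microglia, and 6.46 CPM in APPPS1 astrocytes and 12.5 and 41.3 CPM in the amyloid-free astrocytes (interaction 6.92 ± 1.20, adjusted p = 0.487). Csf1 had 270.1 CPM in APPPS1 microglia and 49.1 and 47.4 CPM in the amyloid-free microglia, and 53.3 CPM in APPPS1 astrocytes and 38.6 and 47.5 CPM in the amyloid-free astrocytes (interaction 2.10 ± 0.38, adjusted p = 0.589). The APPPS1 microglia mean of both lay above the 2 amyloid-free microglia libraries, and neither interaction passed. Etl4 (5.04), Rragd (4.06), Tcim (3.07), Sgk1 (3.11), Tubb3 (2.77), Cpd (1.95) and Adamts1 (1.36) also had positive interaction log2 values, with adjusted p = 0.487. On the negative side Cyp4f14 (-2.48), Vcam1 (-2.02), Gpr45 (-4.76), Klf10 (-1.94), Rcan1 (-1.27), Pomk (-1.05) and Pde3b (-1.15) had the lowest p, with adjusted p = 0.487 to 0.994. Egfl6, also among them, had 0 counts in APPPS1 microglia.

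For the genes on which the 2 sorts divide, amyloid-free levels are given as a description. Trem2 had 3198 CPM in APPPS1 microglia and 1681 and 1498 CPM in the amyloid-free microglia, and 0.223 CPM in APPPS1 astrocytes and 0 and 0.669 CPM in the amyloid-free astrocytes. Cst7 had 1607 CPM in APPPS1 microglia and 11.4 and 9.65 CPM in the amyloid-free microglia, and 0.632 CPM in APPPS1 astrocytes and 0 and 0 CPM in the amyloid-free astrocytes. Lpl had 476 CPM in APPPS1 microglia and 30.2 and 16.8 CPM in the amyloid-free microglia, and 0.621 CPM in APPPS1 astrocytes and 0.0411 and 1.97 CPM in the amyloid-free astrocytes. The APPPS1 microglia mean of each lay above both amyloid-free microglia libraries, and astrocyte libraries were near 0 in both genotypes. Axl had 214 CPM in APPPS1 microglia and 24.6 and 12.4 CPM in the amyloid-free microglia, and 132 CPM in APPPS1 astrocytes and 119.9 and 123 CPM in the amyloid-free astrocytes. Gfap had 1.94 CPM in APPPS1 microglia and 0.333 and 1.42 CPM in the amyloid-free microglia, and 169 CPM in APPPS1 astrocytes and 68.8 and 62 CPM in the amyloid-free astrocytes. Hmgcs1 had 69.2 CPM in APPPS1 microglia and 60.9 and 47.5 CPM in the amyloid-free microglia, and 358 CPM in APPPS1 astrocytes and 415 and 309 CPM in the amyloid-free astrocytes. Hmgcs1 was lower in microglia than in astrocytes of both amyloid-free mice, and so was Axl, whose interaction was 3.22 ± 0.67, adjusted p = 0.791.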

How the data were processed

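RNA of CD11b-sorted microglia and ACSA-2-sorted astrocytes was sequenced as bulk libraries (SMARTer amplification of miRNeasy Micro RNA, per the labels' protocols). The authors deposited 1 table of raw gene counts per library for a joint mouse and human annotation; the submitters' processing notes name bcl2fastq, STAR, Subread, featureCounts, GRCm38 and GRCh38, and no further role for them is given in the sources used here. Counts ran from 38313737 to 48313983 mouse gene counts per library in the 10 libraries described and from 26139519 to 63725676 in all 28. All columns matched a sample label. The 40481 mouse genes were used, and the 55093 human rows left out except APOE; duplicate rows of 258 gene IDs held equal counts, and 1 row of each was used. Positions come from GENCODE M21, and promoters from RefSeq (GRCm38.p6). Counts of replicate libraries differed by more than sampling noise in every group, and libraries of a group come from separate mice per the labels. With the mouse as a block, p-values measure how the difference between the sorts varies between mice, sorting and library preparation included.

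Genes were filtered with filterByExpr, scaled by TMM and tested with edgeR 4.0.16 (quasi-likelihood test, R 4.3.3) with sort and mouse as terms, with Benjamini-Hochberg adjustment over the mouse genes tested. The mouse numbers in the labels pair the 2 sorts of 1 animal. Deviations of same-numbered libraries from their group means showed little or no correlation (r = 0.0202, 0.1932, -0.0202, -0.0984 and -0.0456 over 9477 genes). The best r with a library of another mouse was 0.2462, 0.0443, 0.1153, 0.1617 and 0.1132, larger for all but mouse 447. The pairing thus rests on the labels. The interaction used 14 libraries and the same terms with amyloid. DESeq2 1.42.0 and limma-voom (limma 3.58.1), other scalings and filters, no mouse block, 26 libraries and leaving out each mouse were alternatives. The scripts were tested on simulated data. A gene with 0 counts in a sort is given a limit of 3 counts over its 5 libraries. Counting error was not separated from the spread between mice gene by gene, and it weighs more at low levels.

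The members, the 39 gene lists (649 genes), the 43 axes and the tests were chosen with earlier results of these data known. Named genes are the markers, all axis genes, up to 4 members of a list per direction with at least 10 CPM in the higher sort, members called against their list's majority or at 100 CPM or more in both sorts, the 8 largest differences per direction over all genes with at least 100 CPM (predicted genes left out), and the 8 lowest interaction p per direction. Members of a list that failed the filter on low counts were not tested and are left out of its counts. Brain region, sex and strain terms were not used. Some genes that this rule names are not reported here.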

Additional observations from a re-analysis of the deposited data

Results flagged for a closer look

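In each sort of 5 libraries, the highest or lowest library was set against the others for every gene named above with a mean of at least 1 CPM in that sort and for the marker sums. It is given here where its gap to the nearest library took up more of the range than Dixon's 95% limit allows. This was so for 85 of 662 groups looked at. The limit lets through about 1 in 20 groups of independent, normally distributed values. CPM values are skewed and the groups are related, so the share that chance gives here is not known. The largest number, 36, belonged to the astrocyte library of mouse 774, which stood highest in Adora1 (109.7 CPM), Adora2b (119 CPM), Alox5ap (20.7 CPM), C5ar1 (65.4 CPM), Ccl3 (7.76 CPM), Ccl4 (14.1 CPM), Ccl6 (27.4 CPM), Ccr1 (27.3 CPM), Cd14 (182 CPM), Cd44 (31.1 CPM), Cd68 (6.65 CPM), Clec7a (11.2 CPM), Csf1 (77.4 CPM), Csf1r (9.4 CPM), Csf3r (44.9 CPM), Cxcl2 (94.7 CPM), Fcgr3 (9.54 CPM), Il1a (9.71 CPM), Il1b (132 CPM), Il1r2 (73 CPM), Il1rn (25.9 CPM), Itgam (7.74 CPM), Itgb2 (22.5 CPM), Laptm5 (31.7 CPM), Lcn2 (21.3 CPM), Nlrp3 (6.38 CPM), Osm (5.71 CPM), Ptafr (28.9 CPM), Ptgs2 (19.2 CPM), S100a8 (154 CPM), Thbs1 (14.1 CPM), Tnf (5.23 CPM), Tnfaip3 (12 CPM), Tnfrsf1b (9.06 CPM), Tyrobp (25.9 CPM) and the sum of monocyte and neutrophil markers (369.8 CPM). Among microglia, mouse 439 stood highest in C3 (29.2 CPM), Ccr1 (107 CPM), Ccr2 (129 CPM), Cd44 (86.5 CPM), Il1r2 (76.1 CPM), Il1rn (18.8 CPM), Lcn2 (505 CPM), Lgals3 (212 CPM), Osm (114 CPM), S100a6 (173 CPM), S100a8 (2459 CPM), Sorl1 (71.4 CPM), Vim (162 CPM) and the sum of monocyte and neutrophil markers (9607 CPM), and lowest in Apod (0.458 CPM). Both libraries carry monocyte and neutrophil markers as listed, and the part of those cells in the other genes was not tested.

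The astrocyte library of mouse 439 was highest in Ackr1 (25.8 CPM), Cd200 (51 CPM), Cxcl12 (110.2 CPM), Flt1 (86.1 CPM), Igf1r (31.5 CPM), Igf2 (22.8 CPM), Kdr (21.6 CPM), Tgfbr3 (15.2 CPM) and the sum of endothelial markers (1024 CPM), and lowest in Lgals3 (1.37 CPM), Tgfa (11.1 CPM) and the sum of plaque-associated microglia genes (3578 CPM). Microglia of mouse 469 were highest in Ccl7 (114 CPM), Edn1 (8.22 CPM), Slc1a2 (4.55 CPM), Tnf (189.6 CPM), Tnfaip3 (400.4 CPM), the sum of border macrophage markers (346 CPM) and the sum of ependyma and choroid plexus markers (77.5 CPM). The astrocytes of that mouse were lowest in Jak1 (121 CPM) and Lifr (133 CPM). The remaining values were as follows. Microglia of mouse 447 were highest in Il6 (18.9 CPM), and astrocytes of mouse 447 in Acadm (156 CPM), Adk (516 CPM), Lamp2 (456 CPM) and Slc1a3 (8625 CPM). Microglia of mouse 774 were highest in Cxcl14 (7.37 CPM) and lowest in Hpgds (593 CPM). Microglia of mouse 779 were highest in Hadha (165 CPM) and Havcr2 (469 CPM). Microglia of mouse 447 were lowest in Cnp (99.4 CPM). Astrocytes of mouse 469 were highest in Acads (25.2 CPM). Microglia of mouse 469 were lowest in Ptges3 (340.1 CPM). Astrocytes of mouse 779 were highest in Atp6v0b (309.6 CPM).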

How the results depend on the processing

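Against 11514 genes past the threshold, 12032 passed without the mouse block (no pairing by mouse), 12026 with DESeq2, 12042 with limma-voom, 11494 with RLE size factors, 11472 with upper quartile scaling, 11820 on total mouse counts, 13339 in the fit of 26 libraries, 10479 with a mean of at least 1 CPM, 11970 with no filter, and 10499 to 10941 with 1 mouse left out. With a 2-fold limit 3983 genes were microglia-biased in place of 2604. The interaction with amyloid gave 59 genes with DESeq2, 1 in the fit of 26 libraries (1017 at an unadjusted p under 0.05) and 0 with edgeR (862), limma-voom (1184), RLE size factors (858), no filter (908) and no block (1306). In Cre-positive mice 0 genes were biased when mouse 459 was kept. Of the genes named, 29 lost and 17 gained an adjusted p under 0.05 under at least 1 of these settings, and 26 and 9 with 1 mouse left out. Genes that only came within 4-fold are not in these counts. The cause of the changes was not tested. Log2 differences of some genes that did not pass in the fit reported changed sign. Signs turned in the fit of 26 libraries for Abca1 (0.0329), Atp6v0d1 (0.0238), Atp6v1e1 (0.0552), Gaa (0.00885), Il1r1 (0.0757), Rsad2 (0.0434) and Scp2 (0.0304). Signs turned on total mouse counts for Axl (-0.0516), Hadha (-0.12), Idua (-0.37), Ifit1 (-0.37), Ifit3 (-0.22), Ifnar1 (-0.45), Notch2 (-0.36), Ptges3 (-0.27), Sqstm1 (-0.45) and Ticam1 (-0.0173). Of these, Ifnar1 (adjusted p = 0.0068), Sqstm1 (adjusted p = 0.0222) and Idua (adjusted p = 0.0237) passed there as lower in microglia. A call with a turned sign is not counted as gained above. Signs turned without the mouse block for Gaa (0.00110), Rsad2 (0.11) and S100a6 (0.10). Signs turned with DESeq2 for Ifnar1 (-0.0170) and Sqstm1 (-0.0131). Signs turned with RLE size factors for Ifnar1 (-0.0170) and Sqstm1 (-0.0131). Signs turned with upper quartile scaling for Ifnar1 (-0.0309) and Sqstm1 (-0.0269). Signs turned with a mean of at least 1 CPM for Il1r1 (0.0115). Signs turned with no filter for Il1r1 (0.000918). Signs turned with limma-voom for Rsad2 (0.0781). With 1 mouse left out signs turned, within the ranges given, for Abca1 (-0.25 to 0.22), Atp6v0d1 (-0.14 to 0.0892), Atp6v1e1 (-0.0877 to 0.11), Cxcr6 (-1.14 to 0.16), Dll1 (-0.78 to 0.11), Egf (-0.65 to 0.17), Gaa (-0.24 to 0.0692), Idua (-0.00330 to 0.16), Ifit1 (-0.0106 to 0.29), Ifnar1 (-0.0179 to 0.0867), Il1r1 (-0.37 to 0.51), Notch2 (-0.00296 to 0.23), Rsad2 (-0.21 to 0.19), Scp2 (-0.0776 to 0.0182) and Sqstm1 (-0.0519 to 0.13). Microglia-biased or astrocyte-biased calls that were lost without the block are given beside the values of each gene. Without it Ank, Cd63, Hadha, Lif and Pomk gained a call. A level under 0.1 CPM rests on few counts at this depth.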
